A study of Mus musculus with 10 samples.

Results

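The miR-99, miR-100 and miR-125 microRNAs (miRNAs) and let-7e come from 7 mouse hairpins: Mir99a, Mir99b, Mir100, Mir125a, Mir125b-1, Mir125b-2 and Mirlet7e. They are 7 of the 1174 annotated hairpins searched, and 11 of the 763 mature arms with reads in these libraries. An arm is the 5′ (5p) or 3′ (3p) strand of the processed hairpin. The family was chosen by its position in related clusters and with its levels in mPGCLCs and non-PGCLCs known, since miR-100-5p and miR-125b-5p had been among the arms furthest below non-PGCLC in the mPGCLCs of E14 and BG5. The levels in those cell types are therefore a description without a test. Tests were kept for differences between cell lines, for the difference between lines in the cell-type effect, and for read length and 3′ end within an arm.

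The libraries hold small RNA from Day 6 embryoid bodies, aggregates in which epiblast-like cells made from male (XY) mouse embryonic stem cells (mESCs) were cultured with BMP4 and further factors. Mouse primordial germ cell-like cells (mPGCLCs) and the remaining cells (non-PGCLC) were separated by flow cytometry. E14 (129/Ola, no reporter) and BG5 (C57BL/6J/DBA/129, Blimp1-GFP) supplied both cell types, and SGET (B6CBA/129, Stella-GFP and Esg1-tdTomato) non-PGCLC cells alone, and each of the 5 groups has 2 libraries. The mPGCLCs of E14 were Ssea1+/Cd61+ and those of BG5 Ssea1+/Blimp1-GFP+ by the study's methods, whereas the deposited labels of these mPGCLC samples name the reporter gate of SGET. Line, genetic background and sorting gate therefore change together and cannot be told apart. SGET mPGCLCs and in vivo germ cells were not analysed here. Nothing in the labels says whether replicates came from separate differentiations, so p-values measure only the spread between these samples, which may be technical.

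A miRNA pairs with messenger RNAs mainly through its seed, the bases from position 2 to 8, and the bound messages are destabilised or translated less. miR-99 and miR-100 share one seed, miR-125a and miR-125b share another, and let-7e has the let-7 seed. let-7 and miR-125 are classic heterochronic miRNAs: their worm relatives time developmental transitions, and in vertebrates they accumulate as cells differentiate, with Lin28 as a shared target. Lin28 proteins in turn block the maturation of let-7 precursors in pluripotent and early germ cells. In the genome, members of the families sit together in paralogous clusters that carry a miR-99 relative, a let-7 and a miR-125.

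The mature sequences of the 5p members are given 5′ to 3′ because the seeds decide which of them can share targets and because single bases decide which can be told apart. They come from RefSeq (GRCm38.p6), and capitals mark the seed.
miR-99a-5p: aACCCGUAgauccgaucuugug
miR-100-5p: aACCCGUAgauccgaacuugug
miR-99b-5p: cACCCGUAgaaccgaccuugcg
miR-125a-5p: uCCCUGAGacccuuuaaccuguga
miR-125b-5p: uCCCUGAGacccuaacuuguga
let-7e-5p: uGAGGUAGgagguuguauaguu
let-7a-5p, for comparison: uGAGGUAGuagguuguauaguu
The seed ACCCGUA was shared by 3 mature miRNAs of RefSeq, all of them members. CCCUGAG was shared by 5, among them miR-351-5p, and GAGGUAG by 11. miR-99a-5p and miR-100-5p differ by U16A, counted from 1 at the 5′ end, and let-7a-5p and let-7e-5p by U9G. At position 16 of the miR-99a and miR-100 reads, each of the other bases was seen in at most 7 reads of any library. At position 9 of the let-7a and let-7e reads the other bases were seen in 0 reads of every library, beside up to 165246 let-7a reads. A base with 0 reads at that depth gives no measure of sequencing error, so the part of misread let-7a in the let-7e-5p counts was not tested. No member read also matched the arm of another hairpin outside a merged pair. The miR-125b-5p sequence is the same from Mir125b-1 and Mir125b-2, so it was counted once for both. miR-125a-5p and miR-125b-5p share their first 13 bases.

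The hairpins lie in 3 clusters, each on the plus strand (GRCm38, GENCODE vM21). On chromosome 17, Mir99b (17830188 to 17830257) and Mirlet7e (17830352 to 17830444) are in an intron of Spaca6 and Mir125a (17830812 to 17830879) overlaps a Spaca6 exon, so that 692 bases hold all of them. On chromosome 9, Mir100 (41531425 to 41531504) and Mir125b-1 (41581926 to 41582002) span 50578 bases in an intron of the non-coding genes 3110039I08Rik and Gm49317, with Mirlet7a-2 between them. Mir125b-1 also overlaps an exon of the non-coding gene Gm28119. On chromosome 16, Mir99a (77598936 to 77599000) and Mir125b-2 (77646273 to 77646343) span 47408 bases in an intron of the non-coding gene Mir99ahg, with Mirlet7c-1 between them.

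The 10 libraries held 7421061 to 14444567 reads, of which 14.9% to 34.3% fell in miRNA arms. Levels are given as RPM, the reads of an arm scaled to 1000000 reads of the whole library. PCR copies were not removed, and among sequences of 10 or more reads the most common number of reads per distinct sequence was 44 to 255, so an arm with few reads can rest on very few ligated molecules. Intervals and detection limits cover counting error only. As a check of the labels, the miR-290 and miR-302 list of pluripotent cells (13 of 14 hairpins with reads, all but Mir292b) summed to 196613 and 224377 RPM in E14 mPGCLC and 53351 and 76281 in BG5 mPGCLC. It summed to 8199 and 9412 RPM in BG5 non-PGCLC, but to 93596 and 135178 in E14 and 145906 and 161308 in SGET non-PGCLC, so that BG5 mPGCLC lay under the non-PGCLC libraries of the other lines. The mesenchymal list (miR-199, miR-214, miR-143 and miR-145, 6 of 6 hairpins with reads) summed to 17982 and 28680 RPM in BG5 non-PGCLC and to 306 to 2226 RPM in the other 8 libraries. The part of such cells in the results below was not tested, and in sorted bulk samples fewer cells of a type and less RNA per cell cannot be told apart.

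Reads of the chromosome 17 cluster were abundant in every library. miR-125a-5p, which had most reads of the family in every library but BG5 non-PGCLC replicate 1, had 1614 and 1428 RPM in E14 mPGCLC and 1497 and 1270 in E14 non-PGCLC. It had 2167 and 1802 RPM in BG5 mPGCLC, 7630 and 5941 in BG5 non-PGCLC and 1414 and 2122 in SGET non-PGCLC. The BG5 non-PGCLC libraries stood above all others, and the other 4 groups followed each other with overlapping replicates. In E14 the cell types overlapped, with means of 1521 ± 131 RPM in mPGCLC and 1383 ± 161 in non-PGCLC (SD, n = 2 each), a ratio of 1.10 (log2 0.14). Relative to miRNA reads only, the direction turned, to a log2 ratio of mPGCLC to non-PGCLC of -0.56. In BG5 the mean was 1985 ± 259 RPM in mPGCLC and 6785 ± 1194 in non-PGCLC (SD, n = 2 each), 3.42-fold higher in non-PGCLC.

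miR-99b-5p, encoded at the other end of the same cluster, was likewise highest in BG5 non-PGCLC and next highest in BG5 mPGCLC. It had 564 and 658 RPM in E14 mPGCLC, 589 and 473 in E14 non-PGCLC, 940 and 820 in BG5 mPGCLC, 4193 and 2090 in BG5 non-PGCLC and 586 and 624 in SGET non-PGCLC. The other 3 groups lay under BG5 mPGCLC and between 473 and 658 RPM, the E14 cell types overlapped again, and BG5 non-PGCLC was 3.57-fold above BG5 mPGCLC by the means, with no overlap. Relative to miRNA reads only, its log2 ratio of mPGCLC to non-PGCLC changed from 0.20 to -0.49 in E14, a turn of direction, and from -1.84 to -1.20 in BG5. Over the 10 libraries, log2(RPM + 1) of miR-99b-5p and miR-125a-5p had a Pearson r of 0.969, given as a description of libraries that include replicates.

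let-7e-5p, from the hairpin between them, had another order. Its level was 825 and 806 RPM in E14 mPGCLC and 894 and 906 in E14 non-PGCLC. It was 551 and 285 RPM in BG5 mPGCLC, 7719 and 3910 in BG5 non-PGCLC and 505 and 645 in SGET non-PGCLC. In E14 the groups did not overlap, but the means of 815 ± 13.1 and 900 ± 8.002 RPM (SD, n = 2 each) lay close together, with non-PGCLC 1.10-fold higher (log2 -0.14). Relative to miRNA reads only, the log2 ratio of mPGCLC to non-PGCLC was -0.86. In BG5 the means were 418 ± 188 RPM in mPGCLC and 5814 ± 2693 in non-PGCLC (SD, n = 2 each), 13.9-fold higher in non-PGCLC. BG5 mPGCLC, where miR-125a-5p and miR-99b-5p were second highest, was thus the lowest group for let-7e-5p, overlapping only with SGET.

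**Figure D1:**
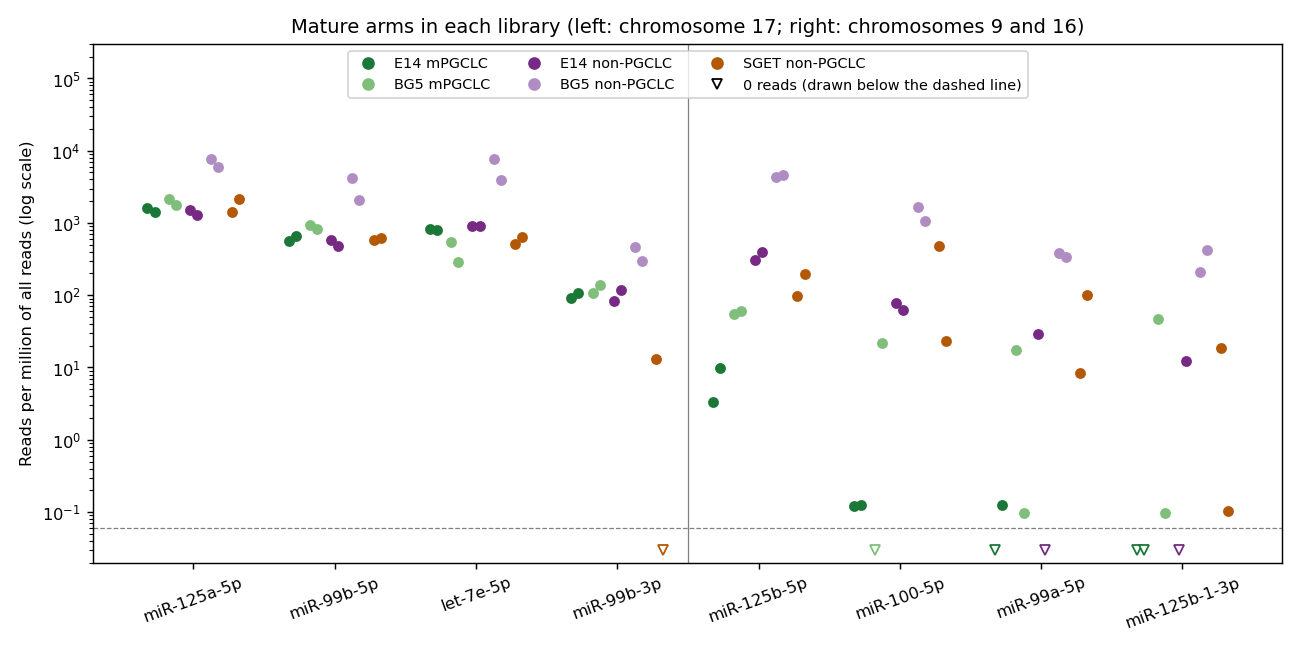
Level of 8 mature arms in each of the 10 libraries, in RPM on a log axis; each point is 1 library, colours are the 5 groups, and open triangles below the dashed line are libraries with 0 reads. The chromosome 17 arms miR-125a-5p, miR-99b-5p and let-7e-5p lie at 285 RPM or more in every library, whereas the arms of chromosomes 9 and 16 reach from 0 reads to 4639 RPM, highest in BG5 non-PGCLC.

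The arms from chromosomes 9 and 16 were scarce in mPGCLCs. miR-125b-5p had 3.38 and 9.69 RPM in E14 mPGCLC, which were 28 and 78 reads, and 54.8 and 60.8 RPM in BG5 mPGCLC, 452 and 622 reads. Non-PGCLC libraries had 311 and 398 RPM for E14, 4361 and 4639 RPM for BG5 and 96.8 and 199 in SGET. No pair of neighbouring groups in this order overlapped, and the order was BG5 non-PGCLC, E14 non-PGCLC, SGET non-PGCLC, BG5 mPGCLC and E14 mPGCLC. By the means, non-PGCLC was 54.2-fold above mPGCLC in E14 and 77.9-fold in BG5. In E14 this ratio rests on 2 distinct sequences in each mPGCLC library, and over single library pairs the log2 ratio of mPGCLC to non-PGCLC ranged from -6.88 to -5.01, against -6.40 to -6.16 in BG5. Over the means the E14 value was -5.76, -6.71 without mPGCLC replicate 2 and -6.47 relative to miRNA reads only.

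miR-100-5p, from the chromosome 9 cluster, had 1 read in each E14 mPGCLC library. BG5 mPGCLC had 0 reads in replicate 1 and 224 reads in replicate 2, or 21.9 RPM, of which 3 distinct sequences held all but 1 read. By counting error alone, the 0 reads allow up to 0.364 RPM. With 138 as the most common number of reads per sequence in replicate 1, a higher level can also give 0 reads. E14 non-PGCLC had 77.5 and 61.6 RPM, BG5 non-PGCLC 1646 and 1070 RPM, and SGET non-PGCLC 482 and 23.1 RPM, where the second library held 226 reads of a single sequence. The mPGCLC and non-PGCLC libraries did not overlap in either line, while the SGET replicates lay on either side of both E14 non-PGCLC libraries.

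miR-99a-5p, from the chromosome 16 cluster, had 0 and 1 read in E14 mPGCLC, 146 reads (17.7 RPM) and 1 read in BG5 mPGCLC, and 215 reads (29.0 RPM) and 0 reads in E14 non-PGCLC. The 146 reads did not start at the annotated 5′ end, which sets the seed. SGET non-PGCLC had 8.40 and 102 RPM. Only in BG5 non-PGCLC was it steady, with 384 and 342 RPM. Of the 10 arms tested below, miR-125b-5p, miR-100-5p and let-7e-5p were the 3 whose mPGCLC libraries lay under the non-PGCLC libraries without overlap in both lines, beside 9.27% of all 561 arms. This contrast was known when the family was chosen, and nothing is read from that count.

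The family's reads thus came from different places in the groups. The chromosome 17 arms made up 99.8% ± 0.156 of the family's reads in E14 mPGCLC and 97.2% ± 0.304 in BG5 mPGCLC (SD, n = 2 each). The share was 86.8% ± 1.92 in E14 non-PGCLC, 70.5% ± 6.93 in BG5 non-PGCLC and 86.0% ± 7.59 in SGET non-PGCLC (SD, n = 2 each). Summed over chromosomes 9 and 16, the level was 3.505 and 9.94 RPM in E14 mPGCLC, 119 and 82.9 in BG5 mPGCLC, 418 and 472 in E14 non-PGCLC, 6603 and 6524 in BG5 non-PGCLC and 606 and 324 in SGET non-PGCLC. All member arms together were 0.935% ± 0.0424 of miRNA reads in E14 mPGCLC and 8.54% ± 0.381 in BG5 non-PGCLC (SD, n = 2 each). Levels of different miRNAs within a library also depend on how well each is ligated and amplified, so these shares compare groups rather than miRNAs.

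**Figure D2:**
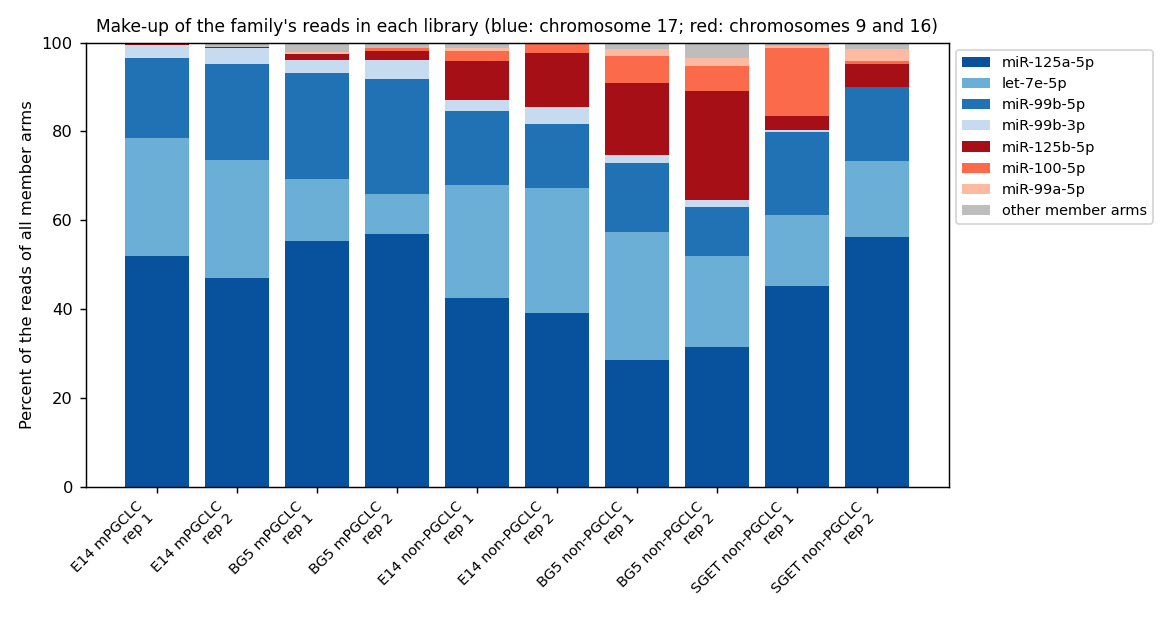
Percent of the reads of all member arms taken by each arm in the 10 libraries, blue for the chromosome 17 cluster and red for chromosomes 9 and 16; each bar is 1 library. Chromosomes 9 and 16 held 0.113% and 0.327% of the reads in E14 mPGCLC and 24.6% and 34.4% in BG5 non-PGCLC, including their 3p arms, which are drawn in grey with the minor arms of chromosome 17.

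Within the chromosome 17 cluster, the ratio of miR-99b-5p to miR-125a-5p reads changed little, and that of let-7e-5p to miR-125a-5p reads changed more. The first ratio was 0.405 ± 0.0786 in E14 mPGCLC, 0.444 ± 0.0151 in BG5 mPGCLC, 0.383 ± 0.0148 in E14 non-PGCLC, 0.451 ± 0.140 in BG5 non-PGCLC and 0.354 ± 0.0855 in SGET non-PGCLC (SD, n = 2 each). The second was 0.511 and 0.564 in E14 mPGCLC and 0.597 and 0.713 in E14 non-PGCLC. It was 0.254 and 0.158 in BG5 mPGCLC, 1.012 and 0.658 in BG5 non-PGCLC and 0.357 and 0.304 in SGET non-PGCLC. Both BG5 mPGCLC values lay under all others, and both SGET values under those of E14 and of BG5 non-PGCLC. The ratio itself was not tested.

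let-7e-5p also took a different part of the let-7 family. Of all let-7 and miR-98 5p reads it was 8.36% and 10.2% in E14 mPGCLC, 13.7% and 15.7% in E14 non-PGCLC, 24.7% and 16% in BG5 non-PGCLC and 11.8% and 15.3% in SGET non-PGCLC. In BG5 mPGCLC it was 34.3% in both libraries, above every other library. There, let-7a-5p had 331 and 173 RPM, and the sum of the other let-7 arms was 816 ± 373 RPM, against 8200 ± 1437 in E14 mPGCLC (SD, n = 2 each).

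**Figure D3:**
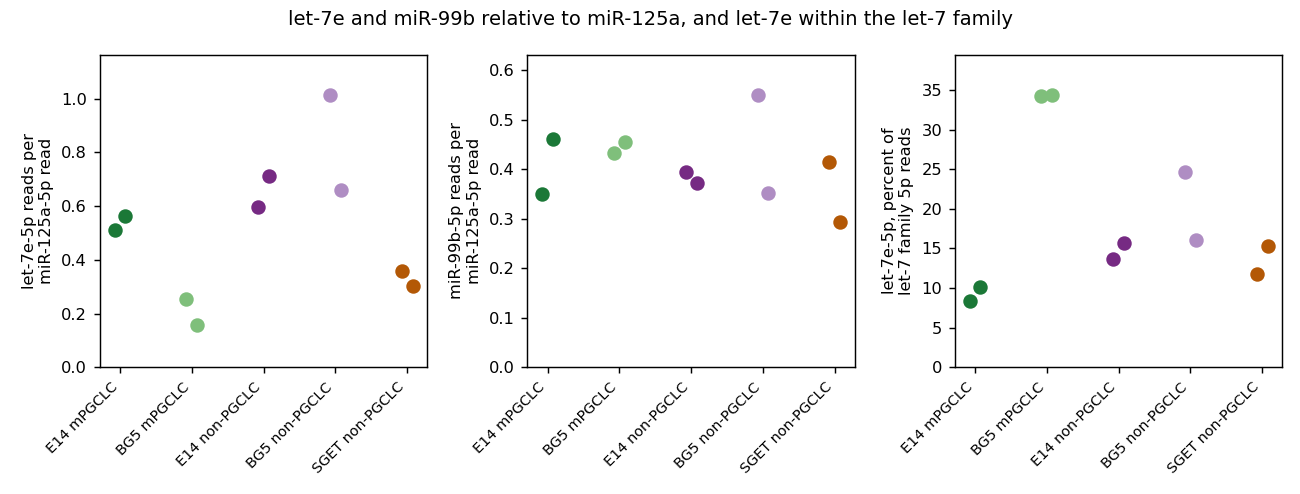
Left and middle, reads of let-7e-5p and of miR-99b-5p per read of miR-125a-5p; right, let-7e-5p as a percent of all let-7 family 5p reads; each point is 1 library, by group. BG5 mPGCLC has the lowest let-7e to miR-125a ratios, 0.158 and 0.254, and the highest let-7 shares, both 34.3%, while the miR-99b to miR-125a ratio lies between 0.294 and 0.549 in all libraries.

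The 3p strands, the partner strands that are usually discarded, were scarce. miR-99b-3p had 91.9 and 109 RPM in E14 mPGCLC, 84.5 and 118 in E14 non-PGCLC, 109 and 140 in BG5 mPGCLC and 463 and 293 in BG5 non-PGCLC. It was 9.94% to 19.9% of the reads of its hairpin in these 8 libraries. In SGET non-PGCLC it had 13.3 RPM, 2.21% of the reads of its hairpin, in replicate 1 and 0 of 9775392 reads in replicate 2. By counting error alone, those 0 reads allow up to 0.307 RPM. With 213 as the most common number of reads per sequence in replicate 2, a higher level can also give 0 reads. miR-99b-5p had 8446 and 6095 reads in the same libraries. miR-125a-3p took at most 2.84% and let-7e-3p at most 0.985% of the reads of its hairpin. miR-125b-1-3p, which unlike the 5p arm names its hairpin, had 211 and 427 RPM in BG5 non-PGCLC and at most 47.0 RPM elsewhere. miR-125b-2-3p had 1 and 653 reads in BG5 non-PGCLC and 0 elsewhere, and no read came from miR-99a-3p or miR-100-3p.

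The first test asked whether the 3 lines differed in non-PGCLC cells. Of the 11 arms, 10 passed the filter on low counts (all but miR-125b-2-3p), and 561 arms were tested. miR-125a-5p, miR-99b-5p, let-7e-5p and miR-125b-5p differed between the lines (edgeR quasi-likelihood test, adjusted p = 0.000328, 0.000224, 3.59e-06 and 6.24e-06), which is 4 of 10 beside 18.9% of all arms tested. In BG5 against E14 the same arms were higher in BG5, 4 of 10 beside 7.84% of all arms called higher. miR-125b-5p was higher by a log2 difference of 2.66 ± 0.48 (SE), let-7e-5p by 1.60 ± 0.28, miR-99b-5p by 1.47 ± 0.30 and miR-125a-5p by 1.26 ± 0.25, with adjusted p = 0.000696, 0.000601, 0.00177 and 0.00165 (edgeR). Both BG5 libraries lay above both E14 libraries for each of these. Without BG5 replicate 1 the adjusted p of miR-99b-5p was 0.0607. These values are relative to the other miRNAs (TMM scaling), under which the median of all arms was 0.16. Scaled by total reads the median of all arms was 1.19, and the members were higher by 3.66, 2.69, 2.56 and 2.29. Of all arms called, 44 were higher and 43 lower under TMM, and 72 higher and 22 lower with total reads. The BG5 non-PGCLC libraries are also those with the low pluripotent and high mesenchymal sums given above. Further lists without overlap between these groups were endothelial and blood (3 of 6 hairpins with reads, with the red-cell miRNAs miR-144 and miR-451a at 0 in every library), at 110.5 to 192.5 RPM in BG5 and 17.6 to 50.2 in E14, and epithelial (5 of 5), at 1386 to 1399 RPM in BG5 and 1114 to 1133 in E14. The neural list (6 of 6) was lower in BG5, at 42.6 to 53.9 RPM against 150.2 to 243 in E14. The muscle (5 of 5) and liver (1 of 1) lists overlapped, at no more than 68.8 RPM. The part of these cell types in the result was not tested.

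miR-100-5p (log2 3.23 ± 1.48 SE, adjusted p = 0.188), miR-99a-5p (3.71 ± 2.18, adjusted p = 0.329) and miR-125b-1-3p (4.72 ± 2.59, adjusted p = 0.293) were also at higher values in BG5 than in E14 non-PGCLC in both replicates, and did not pass (edgeR). miR-100-5p passed in 17 of the 31 alternative fits.

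In SGET against E14 non-PGCLC, miR-125b-5p fell by 1.81 ± 0.47 (SE, adjusted p = 0.0324) and let-7e-5p by 1.17 ± 0.28 (adjusted p = 0.0253) on the log2 scale (edgeR), 2 of 10 beside 2.85% of all arms called lower. Both calls were lost when the libraries were scaled by total reads (adjusted p = 0.138 and 0.492) and when only the 4 libraries compared were fitted (0.138 and 0.0846). The call of miR-125b-5p was also lost with RLE scaling (0.0579), and that of let-7e-5p without E14 replicate 2, SGET replicate 1 or SGET replicate 2 (0.0997, 0.0939 and 0.165). With the tested arms held fixed, let-7e-5p also lost it without E14 replicate 1 (0.0861), and miR-125b-5p without E14 replicate 1, E14 replicate 2 or SGET replicate 1 (0.129, 0.240 and 0.104). miR-125a-5p (log2 -0.17 ± 0.25 SE, adjusted p = 0.828) and miR-99b-5p (-0.32 ± 0.29, adjusted p = 0.627) did not pass. miR-99b-3p had -4.34 ± 1.46 (adjusted p = 0.138, edgeR), with the counts given above. The pluripotent, endothelial and blood, epithelial and muscle sums were higher in SGET than in E14 non-PGCLC without overlap (162.6 to 191.5 RPM for endothelial and blood, 2693 to 3031 for epithelial and 54.0 to 232 for muscle in SGET), and the neural sum was lower, at 0 to 117 RPM. Their part was not tested.

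Between the mPGCLCs of BG5 and E14, 3 of 10 arms passed, beside 10.2% of all arms. miR-125b-5p was higher in BG5 by 3.06 ± 0.50 (SE, adjusted p = 0.000358, edgeR), with 28 and 78 reads in E14 against 452 and 622 in BG5. Fitted on these 4 libraries alone its adjusted p was 0.154. let-7e-5p fell by 1.16 ± 0.28 on the log2 scale (adjusted p = 0.00978, edgeR), lower in both BG5 libraries than in both of E14. This call was lost with total-read scaling (0.188), with exact hairpin matches (0.0988), without E14 replicate 1 (0.0779) and without BG5 replicate 2 (0.253). miR-100-5p passed with a log2 value of 6.50 ± 1.90 (adjusted p = 0.0360, edgeR) that rests on the 224 reads of BG5 replicate 2. Without that library the value was -3.78. The call was also lost with RLE scaling and, with the tested arms held fixed, without either E14 mPGCLC or either E14 non-PGCLC library. miR-125a-5p (0.25 ± 0.25, adjusted p = 0.627) and miR-99b-5p (0.40 ± 0.29, adjusted p = 0.472) did not pass, so that the 2 outer miRNAs of the chromosome 17 cluster and let-7e-5p had values of opposite sign. Between these groups the pluripotent sum was lower in BG5, as given above, and the epithelial sum was higher, at 3172 to 4337 RPM against 1900.5 to 1984 in E14, both without overlap. The other 5 cell-type lists overlapped, and the part of these cells in the result was not tested.

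The last line comparison asked whether the cell-type effect, mPGCLC minus non-PGCLC, differed between BG5 and E14. It did for let-7e-5p, whose effect was lower in BG5 by a log2 difference of -2.76 ± 0.40 (SE, adjusted p = 0.000129, edgeR), 1 of 10 members beside 1.78% of all arms called lower. With total-read scaling the value was -3.65 (adjusted p = 0.000152), where the median of all arms moved from 0.02 to -0.79. let-7e-5p stayed past the threshold in all 31 alternative fits, with adjusted p of at most 0.00435 and log2 values of -3.65 to -2.25. miR-125a-5p (-1.02 ± 0.35, adjusted p = 0.118) and miR-99b-5p (-1.07 ± 0.42, adjusted p = 0.178) did not pass, though both did with total-read scaling and with DESeq2. The difference between let-7e-5p and its cluster neighbours was not tested. For miR-125b-5p the effects differed by 0.40 ± 0.65 (adjusted p = 0.9998), a value without a steady sign: it was -0.52 with total-read scaling, -0.12 without E14 mPGCLC replicate 1 and 1.28 without E14 mPGCLC replicate 2. The marker sums also differed between cell types by line. The mean mesenchymal sum was 450 RPM in mPGCLC and 23331 in non-PGCLC of BG5, against 636 and 1751 in E14, and the mean pluripotent sum was 64816 and 8806 RPM in BG5, against 210495 and 114387 in E14. In the same order, the mean neural sum was 269.5 and 48.3 RPM in BG5, against 211.7 and 196.4 in E14. For endothelial and blood it was 99.6 and 151.5 RPM, against 110.6 and 33.9, and for epithelial 3754.5 and 1392, against 1942 and 1123. The muscle and liver means were at most 48.05 RPM in these groups. Their part in the result was not tested.

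**Figure D4:**
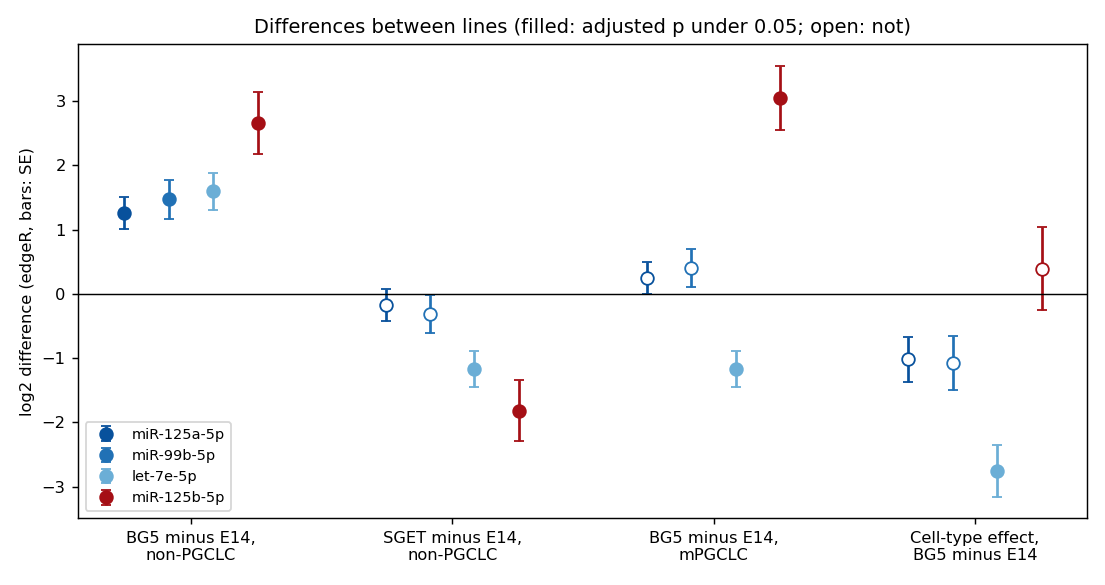
log2 differences between lines for the 4 abundant 5p arms in 4 comparisons (edgeR, all 10 libraries, bars are standard errors); filled points have an adjusted p under 0.05. let-7e-5p is filled in each comparison, at 1.60, -1.17, -1.16 and -2.76, while miR-125a-5p and miR-99b-5p are filled only for BG5 minus E14 non-PGCLC.

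The other let-7 hairpins are the relatives of let-7e that include its cluster counterparts Mirlet7a-2 and Mirlet7c-1. Of their 13 arms with reads 11 were tested. Between the mPGCLCs, 8 of 11 fell in BG5 and 0 rose, beside 4.81% of all arms called lower, with a median log2 of -3.57 beside a median of 0 over all arms. let-7a-5p fell by 3.92 ± 0.35 (SE, adjusted p = 1.19e-06), let-7g-5p by 3.74 ± 0.33 (1.19e-06) and let-7c-5p by 2.75 ± 0.39 (9.14e-05), each from edgeR and each by more than the 1.16 of let-7e-5p. In the test of the cell-type effect 7 of 11 were lower in BG5, beside 1.78% of all arms, with a median of -4.29 beside 0.02 over all arms. The 7 called arms had log2 values from -8.06 to -3.57, each further from 0 than the -2.76 of let-7e-5p. In non-PGCLC cells 3 of 11 rose in BG5 against E14, beside 7.84% of all arms, and 2 of 11 fell in SGET against E14, beside 2.85%. let-7 hairpins give near-identical sequences, so single copies are uncertain.

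Other relatives were read from a list of Mir351, which has the miR-125 seed, and of Mir10a and Mir10b, the relatives of miR-99 and miR-100. Of 5 arms with reads 4 were tested. miR-351-5p was higher in BG5 than in E14 non-PGCLC by 1.80 ± 0.41 (SE, adjusted p = 0.00448, edgeR), with 2944 and 1820 RPM against 288 and 360. miR-10a-5p (2.61 ± 1.52, adjusted p = 0.327) and miR-10b-5p (4.48 ± 1.70, adjusted p = 0.0951) did not pass, and the BG5 libraries had 2475 and 223 RPM of miR-10b-5p. miR-351-3p was lower in SGET than in E14 non-PGCLC (adjusted p = 0.0295, edgeR), with 0 reads in both SGET libraries and 25.3 and 10.3 RPM in E14. The most common number of reads per sequence was 87 and 167 in those E14 libraries, so this call can rest on very few ligated molecules. Between the mPGCLCs the median log2 of the 4 arms was 0.53, and the lowest adjusted p was 0.4995 (edgeR).

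Isoforms were described next, because read length and added 3′ bases within an arm do not use its level. The annotated 5′ end, which sets the seed, began 96.4% to 99.8% of the reads of miR-125a-5p, 94.5% to 98.4% of miR-99b-5p and 97.6% to 100% of let-7e-5p. For miR-125b-5p the range was wider, from 80.9% in BG5 mPGCLC replicate 2 and 88.7% in E14 non-PGCLC replicate 1 to 100% in 3 libraries. It was 92.7% to 100% for miR-100-5p and 86.4% to 100% for miR-99b-3p where they had reads. The 3′ ends varied. The reads below are the most frequent of each arm, 5′ to 3′, written with U for T from the deposited files, and a capital marks a last base that does not match the hairpin.
miR-125a-5p, 24 nt: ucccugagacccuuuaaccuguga
miR-125a-5p, 22 nt: ucccugagacccuuuaaccugu
miR-125a-5p, 23 nt: ucccugagacccuuuaaccugug
miR-99b-5p, 22 nt: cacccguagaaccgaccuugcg
miR-99b-5p, 21 nt: cacccguagaaccgaccuugc
miR-99b-5p, 23 nt: cacccguagaaccgaccuugcgA
let-7e-5p, 22 nt: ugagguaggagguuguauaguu
let-7e-5p, 23 nt: ugagguaggagguuguauaguug
let-7e-5p, 23 nt with another last base: ugagguaggagguuguauaguuU
The 24-nt read of miR-125a-5p was 37.2% and 44.7% of its reads in E14 mPGCLC, 50.8% and 50.6% in E14 non-PGCLC, 59.7% and 64.3% in BG5 mPGCLC, 71.0% and 72.3% in BG5 non-PGCLC and 50.9% and 56.5% in SGET non-PGCLC. The 22-nt read, which lacks the last 2 bases, went the other way, from 37.6% and 32.7% in E14 mPGCLC to 7.89% and 4.92% in BG5 non-PGCLC. In E14 mPGCLC replicate 1 it was the most frequent read. The 23-nt read stayed between 11.7% and 15.5%. Within both lines mPGCLC libraries had the smaller share of the 24-nt read without overlap, and every BG5 library had a larger share than every E14 library, a split between lines that was noticed in the data and not tested.

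The mean read length of miR-125a-5p was 23.3 ± 0.218 nt in mPGCLC and 23.5 ± 0.264 nt in non-PGCLC (SD, n = 4 each) over E14 and BG5. The difference of -0.19 nt had p = 0.257 (two-sided exact permutation test over 70 arrangements, adjusted 0.571 over 8 tests). The smallest p of this design is 0.0286, and 1 arm alone at it would have an adjusted p of 0.229, so that at least 5 of the 8 tests would have to reach it for any to pass. The design could therefore not call 1 arm on its own, and the adjusted values are no sign that arms were alike. Within the lines the differences were -0.14 nt in E14 and -0.24 nt in BG5. An exact test that permuted libraries inside each line gave p = 0.0556, the smallest of that design. The arms miR-99b-5p, miR-99b-3p and let-7e-5p were the other 3 with at least 50 reads in each of the 8 libraries. Their mean lengths differed by -0.06, -0.24 and 0.05 nt between cell types (exact permutation test, adjusted p = 0.571, 0.610 and 0.784).

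**Figure D5:**
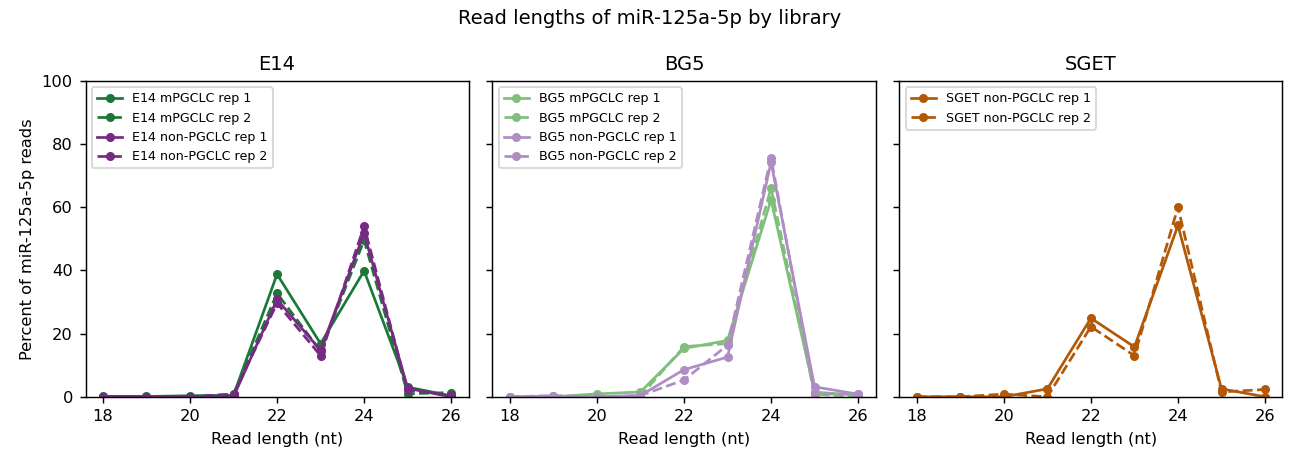
Percent of miR-125a-5p reads at each read length from 18 to 26 nt, 1 line per library, by mESC line; solid and dashed lines are replicates 1 and 2. The 24-nt peak is 39.9% and 49.6% in E14 mPGCLC and 74.3% and 75.7% in BG5 non-PGCLC, and the 22-nt shoulder is 38.8% and 32.8% against 8.59% and 5.32%.

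Reads with 3′ bases that do not match the hairpin were frequent for miR-99b-5p, at 8.09% to 33.0% of its reads, and mostly ended in A or U. For let-7e-5p they were 25.9% and 29.9% in E14 mPGCLC, 14.1% and 19.2% in E14 non-PGCLC, 5.93% and 12.4% in BG5 mPGCLC and 7.77% and 7.56% in BG5 non-PGCLC. The E14 mPGCLC libraries stood above the other 6. Over both lines the share of let-7e-5p was 18.5% ± 11.3 in mPGCLC and 12.2% ± 5.58 in non-PGCLC (SD, n = 4 each), a difference of 6.38 percentage points (p = 0.371 by exact permutation, adjusted 0.594). The differences of miR-125a-5p (0.15 percentage points), miR-99b-5p (-5.90) and miR-99b-3p (10.8) had adjusted p of 0.857, 0.571 and 0.571 (exact permutation test). The lowest unadjusted p of the 8 isoform tests was 0.2. Each of these arms had 2 to 30 distinct sequences of 10 or more reads per library of E14 and BG5.

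Outside the family, the arms whose log2(RPM + 1) ran most like miR-125b-5p over the 10 libraries were miR-199-3p (Pearson r = 0.987), miR-214-3p (0.975), miR-322-3p (0.949), miR-351-5p (0.943) and miR-335-5p (0.921). miR-199-3p had means of 11.5 RPM in E14 mPGCLC, 70.6 in BG5 mPGCLC, 794 in E14 non-PGCLC, 10425 in BG5 non-PGCLC and 293 in SGET non-PGCLC, the same order of groups as miR-125b-5p. miR-199 and miR-214 belong to the mesenchymal list, whose sum had another order of groups by the means. These were 23331 RPM in BG5 non-PGCLC, 2005 in SGET non-PGCLC, 1751 in E14 non-PGCLC, 636 in E14 mPGCLC and 450 in BG5 mPGCLC. The SGET and E14 non-PGCLC libraries overlapped in that sum, as did the mPGCLC libraries of the lines. For miR-125a-5p the nearest were miR-503-3p (0.957), miR-652-3p (0.956), miR-542-5p (0.955), miR-188-5p (0.952) and miR-673-5p (0.950), and for let-7e-5p miR-542-5p (0.938), miR-503-3p (0.937), let-7c-5p (0.935), miR-486-5p (0.919) and miR-335-3p (0.918). miR-503-3p, miR-542-5p and miR-188-5p had at most 2 reads in any library outside BG5 non-PGCLC, so their likeness rests on the 2 libraries in which miR-125a-5p and let-7e-5p were highest. These correlations are over libraries that include replicates of 5 groups, and carry no p.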

How the data were processed

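Small RNA of 10 samples (5 groups of 2) was analysed from 1 deposited table per library of distinct reads and raw counts, which the authors made by trimming adapters and 4 random bases per end with cutadapt 3.2 and mapping to GRCm38 with STAR 2.5.3a. The random bases were not used to remove PCR copies, so read counts overstate precision. The members and lists were chosen with earlier results of these data known. Reads of 18 to 26 nt whose first 18 bases matched 1 of 1174 GENCODE vM21 hairpins in sense, with up to 2 later mismatches, were summed per arm. Arms sharing over 50% of their reads were merged. RPM used all reads of a file (7421061 to 14444567). Named arms were all member arms, the 5 arms most like each of miR-125b-5p, miR-125a-5p and let-7e-5p, and the other let-7, Mir351, Mir10a and Mir10b hairpins as lists. Listed names without reads were matched to older RefSeq names (Mir292a is annotated as Mir292). Raw counts were tested over all arms passing filterByExpr in edgeR 4.0.16 (R 4.3.3) by its quasi-likelihood test, with 5 group means, TMM scaling, Benjamini-Hochberg adjustment and a threshold of 0.05. Standard errors are the log2 difference over the root of F. Isoform measures used exact permutation tests (SciPy 1.17.1). Code was tested on simulated data: in BG5 minus E14 non-PGCLC, 18.5% of 200 arms changed 8-fold among 534 were recovered at the real spread and 99.5% among 559 at a dispersion of 0.1. Alternatives were other scalings, filters, read matches and length windows, DESeq2 1.42.0, only the samples compared, each replicate left out and a replicate block. Chosen after seeing the data were reads divided by the most common reads per sequence of the library, and leaving out replicates with the tested arms held fixed.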

Additional observations from a re-analysis of the deposited data

Results flagged for a closer look

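let-7e-5p was the member whose cell-type effect differed between lines by a test of that difference. mPGCLC minus non-PGCLC was lower in BG5 than in E14 by a log2 difference of -2.76 ± 0.40 (SE, adjusted p = 0.000129, edgeR with TMM scaling), and by -3.65 with total-read scaling (adjusted p = 0.000152), the scale of the RPM values. The RPM means were 815 in mPGCLC and 900 in non-PGCLC of E14, and 418 and 5814 in BG5, with n = 2 in each group. Both BG5 mPGCLC libraries (551 and 285 RPM) lay under both BG5 non-PGCLC libraries (7719 and 3910 RPM). The result was not particular to let-7e-5p: 7 of the 11 other let-7 arms tested were called lower too. Their median log2 was -4.29 over the 11. With total-read scaling and with DESeq2, the members miR-125a-5p and miR-99b-5p were called as well. With 2 samples in a group, single libraries were not tested for standing apart.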

How the results depend on the processing

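Counts of member arms called moved with the processing as follows, where not named within 1.5 times the value reported. The 4 arms called between the 3 non-PGCLC groups became 7 with no filter, 7 with the replicate block and 9 with reads divided by copies, and 4 to 9 with 1 library left out (6 to 9 where the filter was refitted). The 4 of BG5 minus E14 non-PGCLC became 7 with reads divided by copies and 4 to 7 with 1 library left out. The 2 of SGET minus E14 non-PGCLC became 0 with total-read scaling, 1 with RLE scaling, 0 with only the samples compared, 4 with reads divided by copies and 0 to 4 with 1 library left out. The 3 of BG5 minus E14 mPGCLC became 5 with no filter, 5 with DESeq2, 1 with only the samples compared and 1 to 5 with 1 library left out. The 1 of the cell-type effect became 3 with total-read scaling, 2 with no filter, 3 with DESeq2 and 1 to 2 with 1 library left out. For the isoform measures the threshold could not be reached with arrangements inside each line or with the replicate block, whose smallest p are 0.0556 and 0.125, so these say nothing of stability. A single arm could not pass the adjusted threshold in the 4 against 4 design either. With arms of 20 or more reads in each library miR-125b-5p entered, and the lowest unadjusted p of a share of mismatched reads was 0.0286, the smallest that design allows. A lone sample left by an omission was assumed to vary like the other groups. The cause of these changes was not tested.

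Without BG5 mPGCLC replicate 2 the log2 value of miR-100-5p between mPGCLCs was -3.78, and -3.77 with the tested arms held fixed, while without replicate 1 it was 7.52. Deviations of same-numbered samples correlated at -0.11 to 0.05, which gave no sign that the numbers pair the samples. With PCR copies kept and few ligated molecules in some arms, this check cannot exclude such pairing. The replicate block gave 7, 5, 3, 4 and 1 members called in the 5 comparisons above, in that order, against 4, 4, 2, 3 and 1 without it; its isoform counts of 0 were fixed by that smallest p. Among all arms, calls in SGET minus E14 were 10 higher and 16 lower with TMM, 16 and 8 with total reads, 15 and 15 with RLE and 40 and 36 with DESeq2. For the cell-type effect they were 22 and 10 with TMM, 14 and 17 with total reads and 36 and 9 with miRNA reads as library size. miR-99a-5p, miR-100-5p and the 3p arms had few reads or few distinct sequences in most libraries, and why most of their differences were not called was not tested.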
